A study of Pimephales promelas with 139 samples.

Results

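The comparison is between whole fathead minnow larvae held in water with 0.12 ng/L ethinyl estradiol, the lowest concentration of the series, and control larvae held without it. It uses 46 libraries, chosen by the concentration given in the labels: 17 at 0.12 ng/L and 29 controls, with 93 further libraries of the series at higher concentrations. Experiment 1 gave 5 larvae at 0.12 ng/L and 10 controls, experiment 2 gave 6 and 9, and experiment 3 gave 6 and 10. All larvae of Pimephales promelas, a small freshwater fish used in toxicity testing, were exposed in static water for 48 h from 48 h after hatching and were collected at 96 h. The 93 others were exposed to 4 higher concentrations, from 1.2 up to 10 ng/L, in the same 3 experiments, and the series asked which transcripts mark estrogen exposure. Messenger RNA of each whole larva was sequenced and counted per transcript, and the 46 libraries hold 11651986 to 32906788 counts with a median of 23634280.

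Ethinyl estradiol is the synthetic estrogen of oral contraceptives and reaches rivers through sewage effluent. It binds the nuclear estrogen receptors, which then switch target genes on or off. In fish liver the best known targets are the vitellogenin genes, whose products are yolk precursors that males and young fish normally make in very small amounts and that serve as a marker of estrogen exposure. Rows of the table carry identifiers and no gene names. No transcript below is therefore assigned to vitellogenin or to any other gene, and no function is given.

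At 0.12 ng/L the larvae overlapped the controls in each of the 4 transcripts that were called at the next concentration. Some larvae at that next concentration also lay within the range of the controls in each of the 4. FMt030408, FMt030407, FMt030406 and FMt019919 were the 4 transcripts called at 1.2 ng/L against control (0.0113% of 35340 tested), and none of them was called at 0.12 ng/L. A call is a Benjamini-Hochberg adjusted p under 0.05 over all transcripts tested, from edgeR's quasi-likelihood test with concentration and experiment as terms, fitted to all libraries of the series. Levels are given in CPM, a transcript's counts scaled to a common library total, and a log2 difference of 1 is a doubling. In whole larvae a change in the number of cells that hold an RNA and a change in the RNA per cell cannot be told apart.

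FMt030408 ran from 0.167 to 1 CPM in the 29 controls, with a median of 0.42 CPM, and from 0.094 to 1.15 CPM in the 17 larvae at 0.12 ng/L, with a median of 0.475 CPM. At 1.2 ng/L the 30 larvae ran from 0.724 to 32.6 CPM with a median of 10.3 CPM. Of the 17 larvae at 0.12 ng/L, 12 lay within the range of the controls, 3 above the highest control and 2 below the lowest. The 3 high larvae came 1 from each experiment, at 1.15, 1 and 1.06 CPM.

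The log2 difference of FMt030408 at 0.12 ng/L was 0.31 ± 0.33 (SE; unadjusted edgeR p = 0.347), which is 1.24-fold with a 95% interval of 0.79- to 1.94-fold. At 1.2 ng/L the same fit gave 25.7-fold. The upper end of the interval at 0.12 ng/L thus lies below 2-fold, and the direct comparison of 1.2 with 0.12 ng/L gave a log2 difference of 4.38 ± 0.3 (SE; edgeR adjusted p = 9.68e-25). Within experiments 1, 2 and 3 the difference from control at 0.12 ng/L was 0.25 ± 0.39, 0.58 ± 0.39 and 0.17 ± 0.36 (SE, log2). In a fit of only the control and 0.12 ng/L libraries it was 0.32 (unadjusted edgeR p = 0.141).

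FMt030407 and FMt030406 were near the detection limit in both groups. FMt030407 had a median of 0.0971 CPM in controls, where 7 of 29 libraries held no read, and of 0.0837 CPM at 0.12 ng/L, where 1 of 17 held none; the highest values were 0.338 and 0.376 CPM. FMt030406 had a median of 0.0773 CPM in controls and 0.044 CPM at 0.12 ng/L, with no read in 9 of 29 and 6 of 17 libraries, and highest values of 0.388 and 0.573 CPM. A median of 2 reads per control library stands behind each of them, so their intervals were wide: 0.47- to 2.12-fold for FMt030407 and 0.513- to 2.34-fold for FMt030406. Both intervals nevertheless end far below the 20.2- and 13.5-fold differences of these transcripts at 1.2 ng/L. Their identifiers and that of FMt030408 are consecutive, and these values are uncertain if the 3 share reads, since the treatment of shared reads in the counting is not given.

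FMt019919 had a lower level at 0.12 ng/L than in controls before adjustment for the number of transcripts. Controls ran from 0.0829 to 0.851 CPM with a median of 0.365 CPM, and the 0.12 ng/L larvae from 0.047 to 0.469 CPM with a median of 0.245 CPM. Its log2 difference was -0.45 ± 0.19 (SE; unadjusted edgeR p = 0.0229, adjusted p = 1), or 0.734-fold with an interval of 0.563- to 0.958-fold, whereas the difference at 1.2 ng/L was 2.1-fold upward. The direction was not shared by the experiments. Exposed larvae averaged 0.328 CPM and controls 0.254 CPM in experiment 1, whereas exposed larvae averaged 0.26 CPM and controls 0.393 CPM in experiment 2, and 0.207 and 0.434 CPM in experiment 3. The control mean itself differed between experiments, and all 17 larvae lay under the highest control.

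**Figure D1:**
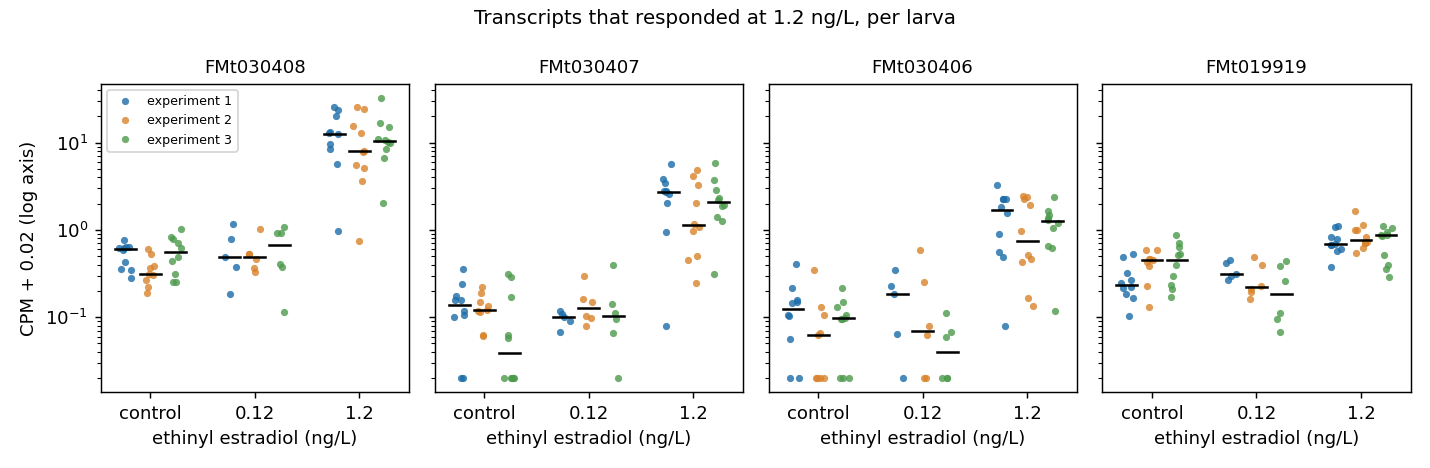
Level per larva of the 4 transcripts called at 1.2 ng/L, as CPM plus 0.02 on a log axis so that larvae without a read can be drawn at the bottom; points are larvae coloured by experiment and bars are medians. The 0.12 ng/L larvae overlap the controls in all 4 panels, as do some larvae at 1.2 ng/L. Medians at 1.2 ng/L lie higher, at 10.3 CPM for FMt030408 against 0.42 CPM in controls.

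The same comparison was made with transcripts chosen without any control or 0.12 ng/L library. The libraries that chose them still entered the fit of all libraries, through its experiment terms and its estimate of spread. A fit of the larvae at 1.2 to 10 ng/L called 7 transcripts between 10 and 1.2 ng/L (0.0202% of 34614 tested), all higher at 10 ng/L: the 4 above and FMt043678, FMt043681 and FMt036339. At 0.12 ng/L against control 0 of the 7 were called by edgeR, as were 0 of all 35340 tested (0%). An unadjusted p under 0.05 was found for 1 of the 7, beside 4.08% of all, and 3 were higher and 4 lower, beside 51.7% higher among all. Their median log2 difference was -0.00137, beside 0.00485 over all, and 5 of the 7 had a 95% interval within 2-fold in either direction, beside 94.5% of all. The 3 transcripts added here had log2 differences of 0.25 ± 0.19, -0.09 ± 0.46 and -0.07 ± 0.28 (SE).

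Another list came from 10 ng/L against control, where edgeR called 34 transcripts higher (0.0962% of 35340) and 22 lower (0.0623%). At 0.12 ng/L 0 of these 56 were called by edgeR, as were 0 of all 35340 (0%), and 18 of the 34 and 4 of the 22 had an unadjusted p under 0.05, beside 4.08% of all. For 0.12, 1.2 and 10 ng/L in turn, the median log2 difference from control was 0.22, 0.22 and 0.56 in the 34 and -0.1, -0.16 and -0.28 in the 22. Individual differences at 0.12 ng/L ran from -0.45 to 1.61 in the first list and from -0.24 to 0.23 in the second. All of these differences, and those of the 4 transcripts called at 1.2 ng/L, were taken against the same 29 controls, so a shift in the controls moves each of them and their direction is not read as a response at 0.12 ng/L.

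Between 1.2 and 0.12 ng/L directly, 5 transcripts were called (0.0141% of 35340): the 4 above, higher at 1.2 ng/L (0.0113%), and FMt043101, lower at 1.2 ng/L (0.00283%). FMt043101 ran from 0.0394 to 9.92 CPM in controls with a median of 0.432 CPM, from 0.0872 to 84.8 CPM in the larvae exposed to 0.12 ng/L with a median of 0.46 CPM, and from 0 to 3.25 CPM in those exposed to 1.2 ng/L with a median of 0.316 CPM. Only 1 larva, of experiment 2, stood above the controls, and the next highest of the 17 held 2.6 CPM. Its log2 difference at 0.12 ng/L against control was 1.92 with an unadjusted edgeR p of 0.000626, and from 0.12 to 1.2 ng/L it was -2.99 ± 0.56 (SE; edgeR adjusted p = 0.0027). The call was lost without experiment 2, in limma-voom and with only the larvae of these 2 concentrations in the fit.

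Over the whole transcriptome no transcript was called at 0.12 ng/L against control, 0 of 35340 (0%), and the smallest adjusted p by edgeR was 0.413. Without adjustment 1442 transcripts (4.08%) had a p under 0.05, of which 932 were higher (2.64%) and 510 lower (1.44%). DESeq2 and limma-voom on the same libraries also called 0, with 1597 and 1479 transcripts under an unadjusted 0.05. Leaving library 7 at 2.5 ng/L, outside this comparison, out of the edgeR fit gave 0 calls and 1668 transcripts under an unadjusted 0.05. The SEs here thus depend in part on the spread of other groups. The excess of higher over lower transcripts among the unadjusted ones was absent without experiment 2, where 693 of 1413 were higher; without experiment 1 it was 774 of 1433 and without experiment 3 it was 950 of 1408. Whether larvae had a vessel or parents in common is not in the labels, and the p-values here cover only the variation among the sequenced larvae.

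The estimated differences were small for most transcripts. The middle 95% of log2 differences ran from -0.36 to 0.44, with quartiles of -0.07 and 0.1, and the median size of a difference was 0.08. A difference of at least 1.5-fold was estimated for 658 transcripts (1.86%) and of at least 2-fold for 147 (0.416%), 79 higher and 68 lower. At 1.2 ng/L, with 30 larvae, 96 transcripts passed 2-fold.

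Few of the estimates over 2-fold were carried by most larvae. Of the 79 higher transcripts, 34 averaged 1 CPM or more, 12 had group medians that also differed by 2-fold in that direction, and in 14 a single larva held over 50% of the summed CPM of the 17. Of the 68 lower transcripts, 29 averaged 1 CPM or more and 16 had medians 2-fold apart. In 1 of them a single control held over 50% of the summed CPM of the 29 controls. The counts of 14 and 1 thus rest on groups of unlike size. Across all transcripts, 208 (0.589%) had 5 or more of the 17 larvae above the highest of the 29 controls and 140 (0.396%) had 5 or more below the lowest. Only 4 transcripts (0.0113%) had 9 or more larvae above every control, and 0 had 15 or more. The 4 were FMt035474, FMt035477, FMt035482 and FMt047558.

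The precision of the comparison sets what could have been seen. The 95% interval of the difference lay within 1.5-fold in either direction for 76.7% of the transcripts tested and within 2-fold for 94.5% (33393 of 35340). Intervals of 1947 transcripts reached 2-fold or more, and those of 178 reached 4-fold. The median SE was 0.135 on the log2 scale, against 0.115 for 1.2 ng/L, where 30 larvae were compared with the same 29 controls.

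If only 1 transcript in the table differed, its unadjusted p would have to be 1.41e-06 or less to be called. With the SEs of this fit that corresponds to a median estimated fold of 1.6, with quartiles of 1.38 and 2.07. These are estimates at which a call is just reached. A true difference of that size can give a smaller estimate and be missed, and power is not given here. The limit differed by level: the median was 2.53-fold between 0.1 and 1 CPM (6976 transcripts), 1.67-fold between 1 and 10 CPM (14524), 1.35-fold between 10 and 100 CPM (12352) and 1.37-fold at 100 CPM or more (1486). For FMt030408 it was 3.15-fold, and for FMt030407 and FMt030406 it was 6.86- and 6.95-fold. Within a single experiment the median rose to 2.25-, 2.17- and 2.14-fold, so estimates under 2-fold in 1 experiment were mostly too small for a single call. A group of transcripts changing together would lower these limits, because the adjustment becomes less strict as more transcripts pass.

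**Figure D2:**
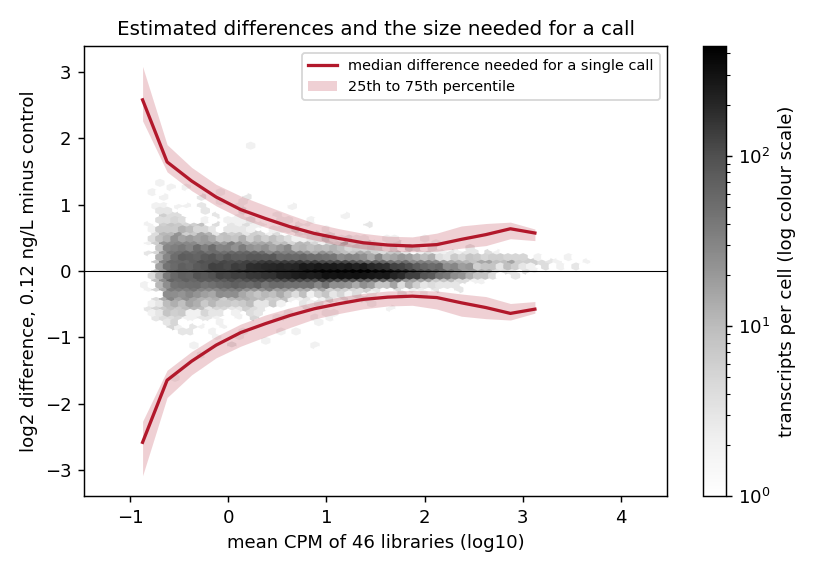
Estimated log2 difference between 0.12 ng/L and control larvae (vertical axis) against mean level in the 46 libraries (horizontal axis, log10 CPM), as counts of transcripts per hexagon on a log colour scale; red lines and bands give the median and quartiles of the difference that a single call would need. Most transcripts lie inside the lines, which narrow from a median of 2.53-fold between 0.1 and 1 CPM to 1.35-fold between 10 and 100 CPM.

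The transcripts nearest to a call were higher at 0.12 ng/L. FMt035482 had the smallest p. Its controls ran from 5.84 to 19.3 CPM with a median of 10.6 CPM, and the 0.12 ng/L larvae from 7.43 to 42.7 CPM with a median of 20.2 CPM. The groups overlapped, but 9 of the 17 larvae lay above every control of the series. All 5 larvae of experiment 1 were among them, at 42.7, 42.1, 23.5, 31.7 and 21.8 CPM, with 1 of experiment 2 and 3 of experiment 3. The log2 difference was 0.86 ± 0.19 (SE, unadjusted edgeR p = 1.8e-05, adjusted p = 0.413), or 1.82-fold with an interval of 1.39- to 2.37-fold. A single call would need 1.97-fold and an unadjusted edgeR p of 1.41e-06 or less. By experiment it was 1.51 ± 0.2, 0.05 ± 0.2 and 0.92 ± 0.19 (SE, log2).

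FMt035472 was second among the higher transcripts with a mean of at least 1 CPM. It ran from 11.6 to 30.2 CPM in controls (median 18.6 CPM) and from 14.9 to 68.9 CPM at 0.12 ng/L (median 25.4 CPM), with 7 of 17 larvae above every control. Its log2 difference was 0.65 ± 0.15 (SE; adjusted edgeR p = 0.413).

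The lower transcripts with the smallest p showed smaller and more even differences. FMt019166 ran from 2.47 to 9.62 CPM in controls with a median of 3.72 CPM and from 1.86 to 4.62 CPM at 0.12 ng/L with a median of 3.01 CPM; 5 of 17 larvae, all of experiment 3, lay below every control. Its log2 difference was -0.46 ± 0.12 (SE; unadjusted edgeR p = 0.000184, adjusted p = 0.465), and -0.39, -0.32 and -0.65 in the 3 experiments. FMt011247 ran from 2.1 to 5 CPM in controls and from 1.57 to 4.27 CPM at 0.12 ng/L, with medians of 3.4 and 2.76 CPM. Its log2 difference was -0.36 ± 0.1 (SE; adjusted edgeR p = 0.476), and -0.56, -0.2 and -0.33 in the 3 experiments. Against the same controls FMt011247 was called at 2.5 ng/L, at -0.34 (adjusted edgeR p = 0.027), and not at 1.2, 5 or 10 ng/L. How many of all transcripts were called at 2.5 ng/L is not given here. That call is therefore not read as particular to FMt011247. Larvae at 2.5 ng/L also varied most among themselves, with a common biological coefficient of variation of 41.3%. Of the 17 larvae 4 lay below every control in FMt011247, 2 of them from experiment 1 and 1 from each of the others. In both transcripts the groups overlapped.

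When only the 46 libraries were fitted, 8 of 33239 transcripts were called (0.0241%), all higher at 0.12 ng/L, and 1670 (5.02%) had an unadjusted edgeR p under 0.05. On the same 46 libraries limma-voom called 1, FMt035482, so the other 7 calls were lost with that tool. The median SE was 0.118 over the 33239 transcripts of this fit and 0.135 over the 35340 in that of all libraries. These sets differ, and between 1 and 10 CPM the medians were 0.136 and 0.147. The log2 difference of FMt035482, for example, was 0.85 in this fit and 0.86 in that of all libraries. The largest of the called differences were those of FMt035474 and FMt005911. FMt035474 had a median of 0.275 CPM in controls (0 to 0.677 CPM) and of 0.681 CPM at 0.12 ng/L (0 to 2.64 CPM), and 9 of 17 larvae lay above every control. FMt005911 had a median of 4.6 CPM in controls (2.16 to 16.9 CPM) and of 9.42 CPM at 0.12 ng/L (3.04 to 41 CPM), with 4 larvae above every control. Their log2 differences in the 46 libraries were 1.58 (adjusted edgeR p = 0.0437) and 1.15 (adjusted p = 0.0172).

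The number of these calls moved with single larvae, while the differences moved less. Over the fits with 1 library left out the log2 difference of FMt035482 ran from 0.77 to 0.92, that of FMt035474 from 1.38 to 1.68 and that of FMt005911 from 0.98 to 1.26. Without 0.12 ng/L larva 2, 38 or 53 (numbers as in the sample titles) 1 call was left, without larva 58 there were 2 and without larva 12 there were 5, whereas leaving out larva 27 or 37 gave 12. Leaving out control 2, 7, 8, 12, 17, 18, 23, 62, 63 or 73 gave 5. FMt035482 was called in all 17 fits without a 0.12 ng/L larva and in all 29 without a control. The others were called in 6 to 14 of the 17 and in 8 to 29 of the 29, with FMt035477 in 6 and 8, FMt035474 in 7 and 9, and FMt005911 in 12 and 29. FMt035482 was not called in the 46 libraries without experiment 1 (log2 difference 0.51) or without experiment 3 (0.8). Without experiment 1 the 46-library fit held 1 call, FMt031708, which was not among the 8. Without experiment 2 it held 11, 10 higher and 1 lower. These included FMt013517, FMt017091, FMt035472 and FMt035473, which were not among the 8. Without experiment 3 it held 0.

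Of the 8 calls, 7 fell in 2 stretches of neighbouring identifiers, FMt005911 to FMt005918 and FMt035470 to FMt035482; these stretches were chosen after their values were seen, and neighbouring identifiers need not mean neighbouring genes. The exception was FMt047558. In the first stretch 5 transcripts were tested, with log2 differences from 1.14 to 1.19 in the fit of all libraries, and in the second 9, from 0.65 to 1.56. The tested transcripts just outside the stretches had differences from -0.23 to 0.13. Reads shared by similar transcripts could put the same signal in several of them, so each stretch is described by its summed level.

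The summed level of FMt035470 to FMt035482 separated the groups in experiment 1 only. There the 5 larvae at 0.12 ng/L held 207, 227, 188, 168 and 116 CPM, and the 10 controls 52.2 to 94.1 CPM with a median of 64.7 CPM. In experiment 2 the 6 larvae ran from 47.2 to 125 CPM with a median of 65.2 CPM, beside 43.8 to 90 CPM and a median of 68 CPM in controls, and in experiment 3 from 57.5 to 148 CPM with a median of 101 CPM, beside 45 to 74.1 CPM and a median of 64.6 CPM. In experiment 2 a single larva of 6 stood above the controls, and in experiment 3 larvae at 0.12 ng/L lay on both sides of the highest control. Over the series 10 of 17 larvae exceeded every control.

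The summed level of FMt005911 to FMt005918 overlapped the controls in every experiment. In experiment 1 the larvae at 0.12 ng/L held 63.2, 36.2, 76.7, 37.5 and 22.7 CPM and the controls 5.12 to 31.3 CPM with a median of 11.2 CPM. In experiment 2 larva 38 held 48.3 CPM, and the median of the 6 was 11.8 CPM beside 9.57 CPM in controls. In experiment 3 the medians were 15 and 10.1 CPM. All but 1 of the 5 larvae of experiment 1 exceeded the controls of that experiment, and of the 5 highest 0.12 ng/L larvae in each stretch 4 were the same.

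The other concentrations were compared with the same controls, so their values are only set beside these. Mean summed levels of FMt035470 to FMt035482 were 65 CPM in controls, 114 CPM at 0.12 ng/L and 89.5, 82, 89.2 and 101 CPM at 1.2, 2.5, 5 and 10 ng/L; those of FMt005911 to FMt005918 were 11.3, 26.3, 19.3, 16.6, 22.9 and 20.7 CPM. In experiment 1 the median of the first sum was 188 CPM at 0.12 ng/L, and from 1.2 to 10 ng/L it was 68.2, 79.6, 78.6 and 144 CPM. The order of the groups did not follow the concentration. However, the stretches and FMt035482 were chosen for their high values at 0.12 ng/L, and a lower level elsewhere can follow from that choice. Neither the order nor the next comparison is read as a response to concentration. For FMt035482 the direct comparison of 1.2 with 0.12 ng/L gave a log2 difference of -0.38 ± 0.19 (SE; unadjusted edgeR p = 0.0492, adjusted p = 1). FMt035470 was called at 2.5 ng/L against the same controls, with a log2 difference of 0.75 (adjusted edgeR p = 0.024) beside 0.85 at 0.12 ng/L. It was not called at 1.2, 5 or 10 ng/L. The share of all transcripts called at 2.5 ng/L is not given here, so that call is not read as particular to FMt035470.

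**Figure D3:**
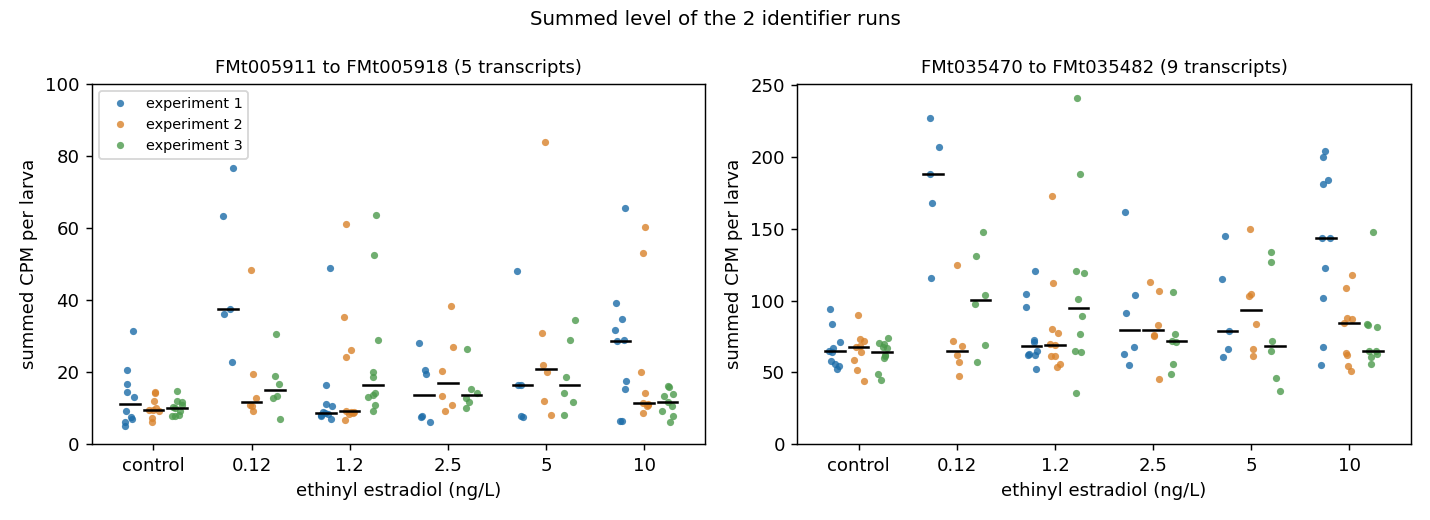
Summed CPM per larva of the transcripts in the 2 stretches of identifiers (linear axes from 0), by concentration and coloured by experiment, with medians as bars. At 0.12 ng/L the median is highest in experiment 1 in both panels, and its larvae stand at 116 to 227 CPM in the right panel beside 52.2 to 94.1 CPM in controls of that experiment, while experiment 2 overlaps its controls.

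Agreement between the experiments is described next, since each experiment holds both groups and controls of its own. The log2 differences of 33239 transcripts in 1 experiment were nearly unrelated to those in another: Pearson's r was -0.0205 between experiments 1 and 2, 0.0279 between 1 and 3 and -0.00821 between 2 and 3, and Spearman's rho was 0.0337, 0.0201 and -0.056. These are correlations across transcripts, which share libraries and depth within an experiment and are not independent, so they carry no p. The sign was shared by 52.5%, 50.1% and 46.7% of the transcripts in the 3 pairs, and by all 3 experiments for 8191 (24.6%). Among transcripts of 1 CPM or more the correlations were of the same size, with r of -0.0194, 0.0207 and -0.0122. Within experiments 1, 2 and 3 the median SE was 0.211, 0.202 and 0.198 (log2), beside a median size of the difference of 0.138, 0.143 and 0.121. Small differences shared by the experiments could therefore leave these correlations near 0.

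**Figure D4:**
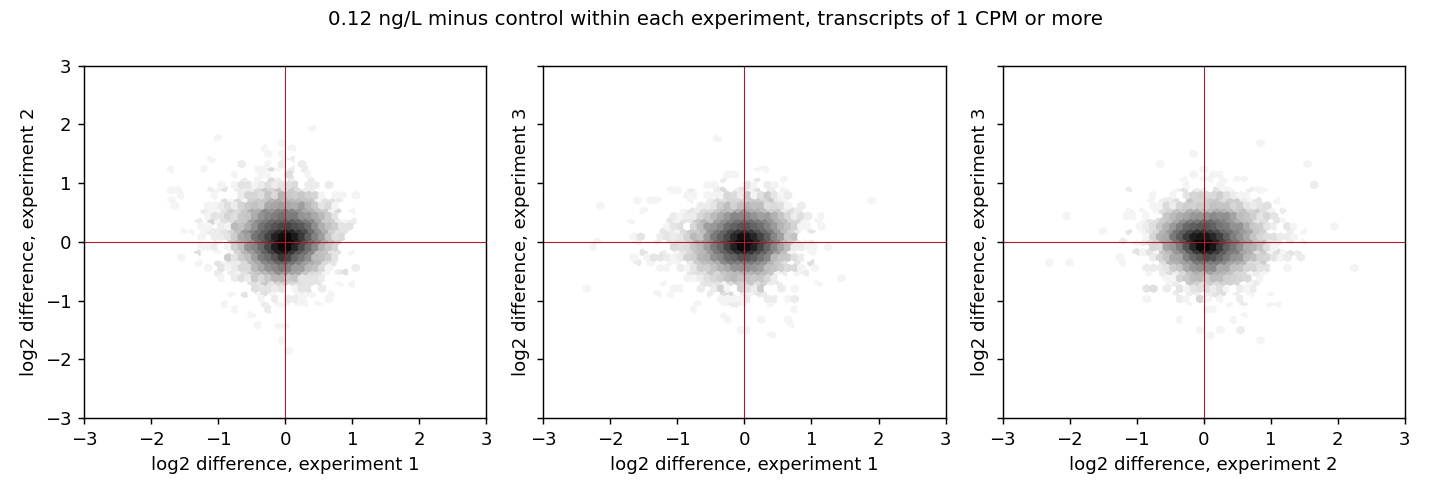
Log2 difference between 0.12 ng/L and control larvae in 1 experiment against that in another, for transcripts with a mean of 1 CPM or more and differences within 3 on both axes; darker hexagons hold more transcripts on a log colour scale. The clouds are round, with Pearson's r of -0.0194, 0.0207 and -0.0122.

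Transcripts picked in 1 experiment were then read in the others. The 921 transcripts higher in experiment 1 at an unadjusted edgeR p under 0.05 had a median log2 difference of 0.43 there, of 0.06 in experiment 2 and of 0.02 in experiment 3; 64% and 55.7% of them were higher in these, beside 54.6% and 49.7% of all transcripts. The 813 lower in experiment 1 had medians of 0.05 and -0.04 in experiments 2 and 3, and 38.6% and 59.4% of them were lower there, beside 45.4% and 50.3% of all. Of the 1337 higher in experiment 2, 46.4% were higher in experiment 1 and 48.6% in experiment 3, beside 48.6% and 49.7% of all. Of the 605 lower in experiment 2, 55.5% were lower in experiment 1 and 49.4% in experiment 3, beside 51.4% and 50.3% of all. The 533 higher in experiment 3 were higher in 58.2% in experiment 1 and 56.8% in experiment 2, beside 48.6% and 54.6% of all, and the 762 lower were lower in 52% and 41.6%, beside 51.4% and 45.4%. In all 6 lists the median size, 0.43 to 0.67 where they were chosen, was 0.06 or less in the other experiments.

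Calls within experiments were also uneven. Experiment 1 gave 10 calls among 33239 transcripts (0.0301%), all higher, and experiments 2 and 3 gave 0 each (0%), with 1734 (5.22%), 1942 (5.84%) and 1295 (3.9%) transcripts under an unadjusted edgeR p of 0.05. Of the 10 calls 7 were among the 8 of the 46-library fit, which includes the same larvae. Estimates of at least 2-fold numbered 464, 531 and 367 in the 3 experiments, and 41 transcripts (0.123%) differed by at least 1.5-fold in the same direction in all 3, 5 (0.015%) by at least 2-fold. An unadjusted p under 0.05 in the same direction in all 3 was reached by FMt005918 and FMt029895, both higher, and by 0 lower transcripts.

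The 5 transcripts over 2-fold in every experiment were FMt029894, FMt029895, FMt009977 and FMt036284, which were higher, and FMt028392, which was lower. None was called by edgeR in the fit of all libraries. FMt029894, FMt009977 and FMt036284 were at a low level in most larvae of both groups and high in a few. FMt029895 varied less among controls, with a mean of 1.44 ± 0.95 CPM (SD), beside 4.05 ± 4.62 CPM at 0.12 ng/L.

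FMt009977 ran from 0 to 36.9 CPM in controls with a median of 0.0934 CPM, and from 0 to 65.6 CPM at 0.12 ng/L with a median of 0.16 CPM. It exceeded 10 CPM in 3 of 29 controls, 1 in each experiment, and in 5 of 17 larvae at 0.12 ng/L, at 28 and 39.9 CPM in experiment 1, 65.6 CPM in experiment 2 and 33.8 and 34.1 CPM in experiment 3. FMt036284 exceeded 10 CPM in exactly the same 3 controls and 5 exposed larvae. The log2 difference of FMt009977 was 1.77 ± 0.89 (SE; unadjusted edgeR p = 0.0498, adjusted p = 1), with an interval from 1- to 11.6-fold, and that of FMt036284 was 1.65 ± 0.89. Single libraries moved both: with 1 left out FMt009977 ran from 0.94 to 3.03 and FMt036284 from 0.8 to 2.81 on the log2 scale, lowest without larva 32 at 0.12 ng/L and highest without control 47. The higher level was not particular to 0.12 ng/L. Against the same controls, the log2 difference of FMt009977 was 1.64, 1.34, 1.97 and 1.42 at 1.2, 2.5, 5 and 10 ng/L. For FMt036284 it was 1.52, 1.23, 1.78 and 1.28.

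FMt029894 had a median of 0.572 CPM in controls (0.0431 to 7.55 CPM) and of 0.617 CPM at 0.12 ng/L (0.0293 to 25.1 CPM). The 4 larvae above every control held 20.6 CPM in experiment 1, 25.1 and 14.8 CPM in experiment 2 and 15.7 CPM in experiment 3, and the same 4 exceeded every control in FMt029895, whose identifier is the next. Medians hardly differed, so the log2 difference of 1.84 ± 0.66 (SE; adjusted edgeR p = 1) was carried by few larvae. For FMt029895 it was 1.46 ± 0.39 (SE; unadjusted edgeR p = 0.000288, adjusted p = 0.476), and 1.55, 1.58 and 1.28 in the 3 experiments. FMt029895 was called at 0.12 ng/L in 2 of 81 alternative settings. Both transcripts were also higher at 1.2, 2.5, 5 and 10 ng/L against the same controls. The log2 differences there were 1.02, 1.24, 0.91 and 1.71 for FMt029894 and 0.75, 0.72, 0.22 and 1.06 for FMt029895.

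The lower transcripts of this kind were the reverse, high in a few controls. FMt028392 exceeded 3 CPM in 8 of 29 controls and in 0 of 17 larvae at 0.12 ng/L. Controls ran from 0 to 8.87 CPM with a median of 0.409 CPM and the exposed larvae from 0.0475 to 1.83 CPM with a median of 0.373 CPM. The log2 difference was -1.91 ± 0.69 (SE; unadjusted edgeR p = 0.0065, adjusted p = 1), and -2.67, -2.87 and -1.05 by experiment. At 1.2 ng/L, beside the same controls, it was 0.09. FMt037422, the other lower transcript that the naming rule gave, ran from 0.127 to 53.1 CPM in controls and from 0.175 to 7.05 CPM at 0.12 ng/L, with medians of 0.696 and 0.899 CPM; its log2 difference was -1.65 ± 0.74 (SE), against the direction of the medians.

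**Figure D5:**
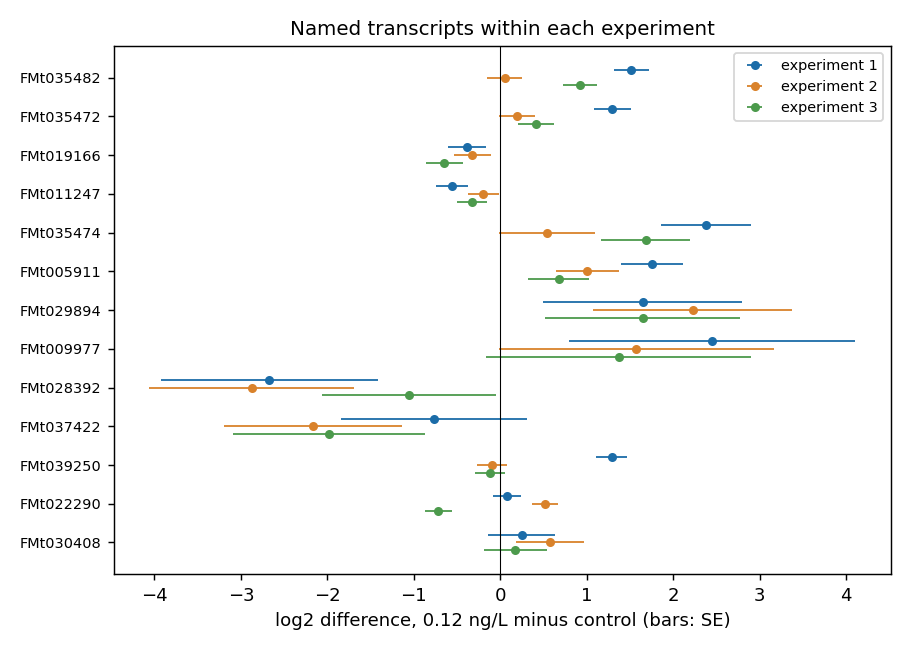
Log2 difference between 0.12 ng/L and control larvae within each experiment (horizontal axis; bars are SE) for the named transcripts that were tested within experiments. FMt039250 stands apart in experiment 1 only, at 1.29 beside -0.09 and -0.12, and the bars of FMt009977, which was high in few larvae, are the widest.

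A direct test of whether the difference varied between experiments called 1 of 33239 transcripts (0.00301%), FMt039250, with 1525 (4.59%) under an unadjusted edgeR p of 0.05. In experiment 1 its 5 larvae at 0.12 ng/L held 80.5, 119, 32.8, 68.3 and 25.1 CPM, beside 18.5 to 33.8 CPM in the 10 controls with a median of 27.2 CPM. In experiments 2 and 3 the exposed larvae ran from 19.5 to 29.5 CPM and from 20.2 to 30.7 CPM, inside the range of 18.5 to 33.8 CPM spanned by all controls. Only 3 larvae, all of experiment 1, thus stood above the controls. The log2 differences were 1.29 ± 0.18, -0.09 ± 0.18 and -0.12 ± 0.17 (SE), and the interaction had an adjusted edgeR p of 0.0124. It was not called without larva 2, 7 or 12, with adjusted p-values of 0.0876, 0.196 and 0.0592, nor by limma-voom (0.466).

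FMt022290 had the second smallest interaction p (unadjusted edgeR p = 4.63e-06, adjusted p = 0.0769). Its medians at 0.12 ng/L and in controls were 5.15 and 5.13 CPM in experiment 1, 6.32 and 4.64 CPM in experiment 2 and 3.69 and 6.46 CPM in experiment 3. The log2 differences of 0.07 ± 0.16, 0.52 ± 0.15 and -0.72 ± 0.16 (SE) cancelled in the fit of all libraries, where the difference was -0.05 ± 0.12.

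Whole-library measures did not separate the groups. The measures were total counts, the number of transcripts at 1 CPM or more and the share of counts in the 100 most abundant transcripts. The mean absolute log2 deviation from the control median of the same experiment and the first 3 principal components were added. Labels were permuted within experiments, 1e+05 times and two-sided, and the adjusted permutation p of all 7 measures was 0.763. The mean absolute deviation was 0.332 ± 0.0657 (SD, n = 29) in controls and 0.347 ± 0.0873 (SD, n = 17) at 0.12 ng/L. Larva 8 at 0.12 ng/L, of experiment 1, stood farthest out, with a deviation of 0.587, 26016 transcripts at 1 CPM or more and a first component score of 98.8, where the highest control had 67.9. Without larva 8 the fit of all libraries still called 0 transcripts by edgeR, with 1273 under an unadjusted p of 0.05, and the 46-library fit called 6.

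Larvae at 0.12 ng/L varied slightly more among themselves than controls. The common biological coefficient of variation was 32.9% at 0.12 ng/L and 31.1% in controls. At the other concentrations it was 31.3 to 41.3%, highest at 2.5 ng/L. The median ratio of the SDs of log2 CPM was 1.07 over 28362 transcripts, and 59.9% of them had the higher SD at 0.12 ng/L; this was not tested.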

How the data were processed

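Read counts per transcript and library were deposited by the authors as whole numbers, not normalized. Per the labels' protocols, 250 ng of RNA entered a SENSE mRNA-Seq library kit. The submitters' processing notes name bcl2fastq 2.19.1, edgeR 3.26.8 and limma 3.40.6; an aligner, a counter, the use of strand and the handling of shared reads are not given in those sources. The least abundant of the 37085 transcripts has 117 counts over all libraries. A row without identifier (1.6e-05% of reads) was left out, and 0 columns were unmapped. Identifiers matched 0 of 64593 reference genes.

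In R 4.3.3 with edgeR 4.0.16, filterByExpr (minimum count 10, minimum total 15) kept 35340 transcripts, and a robust quasi-likelihood model with TMM scaling was fitted to all libraries with terms for concentration and experiment. The interaction with experiment was fitted to the 46 libraries. SEs are the log2 difference divided by the square root of F, or Wald SEs where F was under 0.1 (9178 transcripts); intervals are 95%, from the t distribution. CPM use TMM-scaled totals, and differences of medians add 0.1 CPM. The precision rests on a median of 131 counts in each library and transcript. Among the 46 libraries, no pair of the same group and experiment was a copy: chi-square was 9.84 to 121 times its degrees of freedom over 166 pairs. Other pairs were not compared.

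Named transcripts are the 2 higher and 2 lower with the smallest p and a mean of at least 1 CPM, up to 2 each way among the 46-library calls, the 2 each way with the largest difference shared by all 3 experiments, the 2 with the smallest interaction p, and those called at 1.2 ng/L. Members of most counts of 5 or fewer are named too. The other transcripts of the identifier stretches were named after their values were seen. The transcripts, lists and comparisons were chosen with earlier results of these data known. The model was tested on simulated counts. Alternatives were other scaling (RLE), filters, DESeq2 1.42.0, limma-voom 3.58.1, other terms, and experiments or libraries left out; fits of the 46 libraries without an experiment, and those of 1.2 against 0.12 ng/L, were added after seeing the data.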

Additional observations from a re-analysis of the deposited data

Results flagged for a closer look

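A larva far from the others of its group and experiment was found in 24 of 120 groups of values examined, for the library measures and named transcripts. The 95% critical value used flags about 1 in 20 groups of normally distributed values. CPM of transcripts high in few larvae were skewed, so that rate is no measure of chance for them. Among libraries, 1 control of experiment 1 had a total of 11.7 M counts (others 21.7 to 30.6 M). In experiment 2 control 28 had 27067 transcripts at 1 CPM or more (others 27720 to 28164). The same control had a share of 28.5% in the 100 most abundant (others 23.6 to 25.9%).

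Transcripts high in few larvae gave 11 of the outlying values. For FMt009977 these were controls at 27.2, 33.2 and 36.9 CPM in experiments 1, 2 and 3 and a 0.12 ng/L larva at 65.6 CPM in experiment 2. For FMt029894 they were 0.12 ng/L larvae at 20.6 CPM in experiment 1 and 15.7 CPM in experiment 3 and controls at 7.55 CPM in experiment 2 and 4.4 CPM in experiment 3. For FMt037422 they were a control at 18.9 CPM and 0.12 ng/L larvae at 4.18 CPM in experiment 1 and 1.78 CPM in experiment 3.

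In the stretches nearest to a call, larvae of experiment 2 stood out: 26.5 CPM at 0.12 ng/L for FMt005911 (others 3.96 to 9.42), and 40.2 CPM at 0.12 ng/L (others 14.9 to 23.3) and 29.2 CPM in a control (others 14.8 to 21.8) for FMt035472. FMt022290 had a 0.12 ng/L larva at 11.6 CPM in experiment 2, FMt019166 a control at 9.62 CPM in experiment 1, and FMt011247 a 0.12 ng/L larva at 1.57 CPM in experiment 3. Of the transcripts called at 1.2 ng/L, FMt030408 had a 0.12 ng/L larva at 1 CPM in experiment 2, FMt030407 one at 0.376 CPM in experiment 3, and FMt030406 controls at 0.388 and 0.324 CPM in experiments 1 and 2. FMt039250 differed between experiments by edgeR's interaction test (adjusted p = 0.0124), with a log2 difference of 1.29 in experiment 1 beside -0.09 and -0.12 in the others.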

How the results depend on the processing

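The count of 0 calls at 0.12 ng/L was kept in the fit of all libraries with RLE scaling, a stricter filter, DESeq2, limma-voom, each experiment left out and each 0.12 ng/L larva left out. The same held without libraries under 0.5 times the median total and without library 7 at 2.5 ng/L. Without that library 1668 transcripts were under an unadjusted edgeR p of 0.05, beside 1442 with it. The count was 1 without a low-count filter (FMt031817) and 2 without the experiment term (FMt041062 and FMt043101, the latter above the controls in 1 larva). It was 8 in the 46-library fit. There it was 1 by limma-voom, 1 without experiment 1 (FMt031708, not among the 8) and 11 without experiment 2. It was 1 to 12 there without each 0.12 ng/L larva and 5 to 9 without each control. The title number as a replicate block gave 0 calls in both fits, and the labels do not say what the number stands for. Over 17 pairs the correlation of same-numbered larvae was -0.282 to 0.108, and 1 was over 0.1. Of 17 larvae, 0 correlated best with their own number. The interaction had 1 call, 0 by limma-voom and 0 to 3 without each larva. The 5 calls between 1.2 and 0.12 ng/L became 8 without the experiment term and 4 to 5 otherwise. Intervals within 2-fold numbered 31383 to 33393 over the 6 settings run, which tested different numbers of transcripts. In the 46-library fit they were 32093 of 33239 (96.6%), beside 33393 of 35340 (94.5%) in the fit of all libraries. Among named transcripts, FMt039250 turned to -0.122 without experiment 1 (-0.11 in the 46 libraries) and FMt022290 to 0.307 without experiment 3 (0.305); FMt022290 ran from -0.147 to 0.021 without single larvae. FMt030406 turned to -0.126 by limma-voom and to -0.051 and -0.167 without experiments 1 and 2, and ran from -0.177 to 0.223 without single larvae. FMt030407 turned to 0.042 by DESeq2, 0.202 by limma-voom and 0.277 without experiment 1, and ran from -0.223 to 0.0949 without single larvae. The cause of these changes was not tested. The last 2 transcripts had a median of 2 reads per control library.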
